A study of Mus musculus with 6 samples.

Results

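The levels of 10 genes that act in the G1 phase of the cell cycle were compared across osteoclast formation: the 3 D-type cyclins Ccnd1, Ccnd2 and Ccnd3, their kinases Cdk4 and Cdk6, the retinoblastoma gene Rb1, and the inhibitors Cdkn1a, Cdkn1b, Cdkn2c and Cdkn2d. They were matched by symbol, and all 10 were present once among the 24940 genes of the deposited table. RNA had been sequenced from bone marrow-derived macrophages (BMMs), the precursors of osteoclasts, in 3 groups of 2 libraries. All cells received macrophage colony-stimulating factor (M-CSF, 30 ng/mL), which keeps BMMs alive and dividing. The RANKL + LEA group also received the osteoclast-inducing cytokine RANKL (100 ng/mL) and LEA (10 µg/mL), an ethyl acetate fraction of a water extract of the shiitake mushroom Lentinula edodes. The RANKL group received RANKL without LEA, and the no RANKL group received M-CSF alone. The labels give C57BL/6 mice aged 6 to 8 weeks, whereas the study's methods name male ICR mice for its BMM cultures. The harvest time and the solvent in cells without LEA were not given in the sources used here. Nor was it stated whether the 2 libraries of a group came from separate cultures or mice, so the p-values cover the spread between libraries, which may be technical, and no more.

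During G1, growth factors such as M-CSF raise the D cyclins, which bind CDK4 or CDK6. The active complexes phosphorylate RB, the product of Rb1, and RB then releases the E2F transcription factors that switch on genes for DNA replication. Inhibitors of the INK4 family, to which Cdkn2c and Cdkn2d belong, block CDK4 and CDK6, while those of the CIP/KIP family, Cdkn1a and Cdkn1b, chiefly block the CDK2 complexes that act later. Osteoclasts form by fusion of macrophage precursors that stop dividing, so that cyclins and inhibitors both have known places in this differentiation.

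Each library held 46382311 to 49590001 reads, of which 36610500 to 40026169 fell on genes. These totals were recovered from the steps between low FPKM values (fragments counted per length of exon and per depth of the library). The macrophage markers of a list of 8 summed to 5672 to 7251 FPKM with RANKL + LEA, 3710 to 4400 FPKM with RANKL and 9907 to 13491 FPKM with no RANKL. Lyz2 alone, at 2539 to 11578 FPKM, made up most of this sum in every library. All 8 osteoclast markers were called higher with RANKL than with no RANKL and lower with RANKL + LEA than with RANKL. Their sum was 2537 to 2661 FPKM with RANKL + LEA, 5047 to 5875 FPKM with RANKL and 34.6 to 34.7 FPKM with no RANKL. Of the macrophage markers, 7 were called lower with RANKL than with no RANKL, and 4 higher with RANKL + LEA than with RANKL. The other 4 were not called for RANKL + LEA against RANKL: Itgam (log2 0.44), Cd14 (0.57), Csf1r (-0.12) and Cd68 (-0.34). The 5 mast cell markers were at 0 in every library, and the B cell, T and NK cell and erythroid lists each summed to at most 0.311 FPKM, with Pax5, Hbb-bs and Hbb-bt at 0 throughout. Neutrophil markers summed to 1.19 to 1.73 FPKM with RANKL + LEA, 0.421 to 0.602 FPKM with RANKL and 3.24 to 3.95 FPKM with no RANKL, and the stroma and osteoblast list to 4.32 to 6.05 FPKM with RANKL + LEA, 3.49 to 3.71 FPKM with RANKL and 7.03 to 7.22 FPKM with no RANKL. The dendritic cell and endothelium lists each summed to at most 3.75 FPKM. Ly6g of the neutrophil list and Tek and Emcn of the endothelium list were at 0. In whole cultures, a change in the share of a cell type cannot be told apart from a change of RNA per cell, and the part of cell composition in the results was not tested.

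Genes were tested with limma on log2(FPKM + 0.1), which understates changes of low genes, and a gene was called when its Benjamini-Hochberg adjusted p was below 0.05 and it differed 1.5-fold or more. Of 11905 genes tested, 17.8% were called higher and 17.8% lower with RANKL than with no RANKL. Among the 10 cell cycle genes, 6 were lower and 0 higher: Ccnd1, Ccnd2, Ccnd3, Rb1, Cdkn1a and Cdkn2d. With RANKL + LEA against RANKL, 4.54% of all genes were called higher and 1.77% lower, and of the 10 genes 2 were higher, Ccnd1 and Cdkn2d, and 0 lower. With RANKL + LEA against no RANKL, 15.5% of all genes were called higher and 11.8% lower, and 4 of the 10 were lower, the 3 D cyclins and Cdkn1a, with 0 higher. The median log2 fold change of the 10 genes was -0.84 for RANKL against no RANKL (0.00060 over all genes tested), 0.37 for RANKL + LEA against RANKL (0.049) and -0.54 for RANKL + LEA against no RANKL (0.064). The comparisons share libraries, so that they are not independent of each other. The split of calls over all genes depended on scaling: 71.9% of calls for RANKL + LEA against RANKL were higher, but 57.2% after quantile normalization, 61.1% after median centring and 60.6% with a trend on exon length removed. For RANKL + LEA against no RANKL the share was 56.9%, against 47.8% after quantile normalization and 48.5% after median centring.

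**Figure D1:**
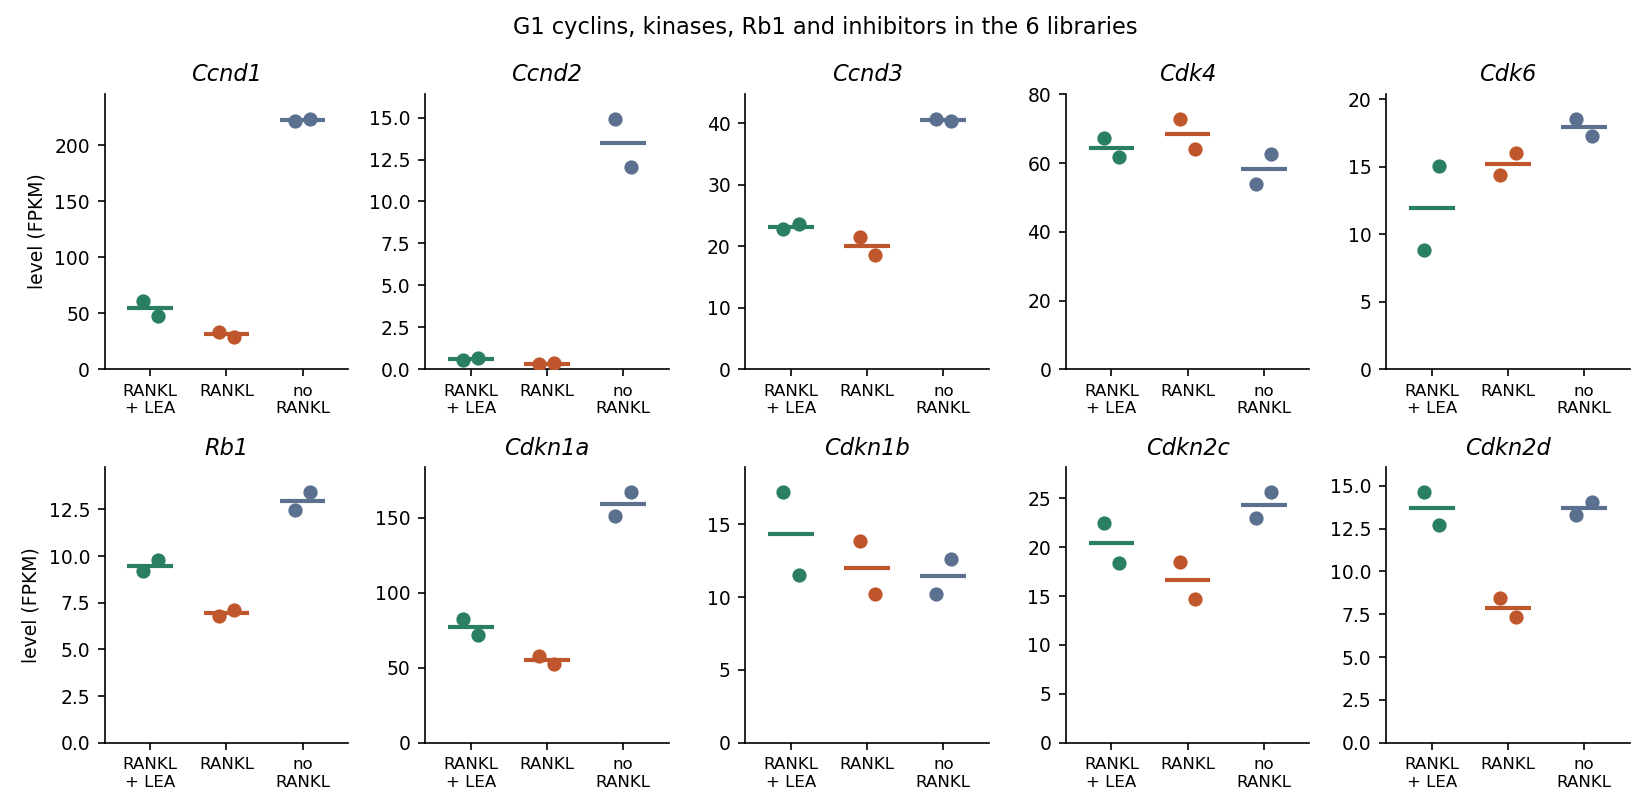
Levels of the 10 genes in FPKM (each vertical axis starts at 0) in the RANKL + LEA, RANKL and no RANKL groups. Points are the 2 libraries of a group and lines are their means. The 3 D cyclins, Cdk6, Rb1, Cdkn1a and, by a narrow margin, Cdkn2c are highest in both no RANKL libraries, with no overlap with the other groups.

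Ordered by mean level with RANKL + LEA, Cdkn1a, Cdk4, Ccnd1, Ccnd3 and Cdkn2c followed each other with no overlap between neighbours, then came Cdkn1b, Cdkn2d, Cdk6 and Rb1, each overlapping the next, and last Ccnd2. With RANKL the order was Cdk4, Cdkn1a and Ccnd1, then the overlapping Ccnd3, Cdkn2c and Cdk6, and then Cdkn1b, Cdkn2d, Rb1 and Ccnd2 without overlap. In cells with no RANKL it was Ccnd1, Cdkn1a, Cdk4, Ccnd3, Cdkn2c and Cdk6 without overlap, and then Cdkn2d, Ccnd2, Rb1 and Cdkn1b, each overlapping the next. Ccnd1 was thus the third in both RANKL-treated groups and first with no RANKL.

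Upstream sequence was taken from RefSeq (build GRCm38.p6), where 7 of the 10 genes had 10 windows of 250 bases before to 50 bases after a start site. The 250 bases before the counted start are shown for the called genes with a window, since these genes were lower together with RANKL. Capitals mark matches, on either strand, to motifs searched in the window: the Sp1 box GGGCGG, found in 35.7% of all 32851 windows of 300 bases, the E2F motif TTTNNCGC (5.17%), the AP-1 motif TGANTCA (7.81%), the CRE TGACGTCA (1.79%), the E-box CACGTG (7.15%) and the FOXO motif GTAAACA (3.65%). The windows lie at chr17:47593217-47593466 (plus strand) for Ccnd3, chr17:29093519-29093768 (plus strand) for Cdkn1a and chr9:21291210-21291459 (minus strand) for Cdkn2d.
Ccnd3: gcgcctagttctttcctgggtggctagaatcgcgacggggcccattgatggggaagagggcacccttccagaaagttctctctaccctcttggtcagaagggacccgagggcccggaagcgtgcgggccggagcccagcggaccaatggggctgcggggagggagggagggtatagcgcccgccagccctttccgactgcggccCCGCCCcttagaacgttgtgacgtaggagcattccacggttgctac
Cdkn1a: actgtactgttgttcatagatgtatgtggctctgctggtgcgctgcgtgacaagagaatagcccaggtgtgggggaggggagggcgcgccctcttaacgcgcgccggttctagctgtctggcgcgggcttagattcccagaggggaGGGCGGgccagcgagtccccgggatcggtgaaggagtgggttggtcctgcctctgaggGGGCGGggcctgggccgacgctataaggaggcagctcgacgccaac
Cdkn2d: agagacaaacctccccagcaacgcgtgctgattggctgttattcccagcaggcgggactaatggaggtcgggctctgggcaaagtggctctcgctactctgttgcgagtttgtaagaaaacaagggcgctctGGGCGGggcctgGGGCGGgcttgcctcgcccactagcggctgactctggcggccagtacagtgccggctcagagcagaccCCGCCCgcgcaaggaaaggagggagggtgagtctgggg
All capitals in these stretches are Sp1 boxes. Counted from the start site, they begin at -46 in Ccnd3, at -104 and -46 in Cdkn1a, and at -118, -106 and -38 in Cdkn2d. Sp1 boxes were not particular to the called genes. Over the whole windows of 300 bases at the counted start, Ccnd3, Cdkn1a and Cdkn2d held 2, 2 and 5 of them. The same windows of Cdk4, Cdkn1b and Cdkn2c, not called in any comparison, held 3, 1 and 4, and that of Cdk6 held 0. Cdk4 also had 4 E-boxes. Matches are a description of letters and not of binding.

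The 3 D cyclins were all called lower with RANKL than with no RANKL. Ccnd1 encodes cyclin D1, the D cyclin with the highest level in these cells, and lies at chr7:144929931-144939925 on the minus strand (mm10). Its level was 61.3 and 48.0 FPKM with RANKL + LEA, 33.2 and 28.9 FPKM with RANKL, and 222 and 224 FPKM with no RANKL. The groups did not overlap, and the RANKL + LEA libraries lay between the others, nearer to RANKL. The log2 fold change was -2.84 (SE 0.14, limma adjusted p = 2.1e-06) for RANKL against no RANKL, a level 0.139 times that of cells without RANKL, and -2.04 (SE 0.14, adjusted p = 2.0e-05) for RANKL + LEA against no RANKL. LEA was accompanied by a 1.75-fold higher level than RANKL alone (log2 0.81, SE 0.14, adjusted p = 0.015). That call was lost without RANKL + LEA replicate 1 (log2 0.63, adjusted p = 0.076), without RANKL replicate 1 (0.91, adjusted p = 0.059) or without RANKL replicate 2 (0.71, adjusted p = 0.11), and with no filter on low values (adjusted p = 0.067). It was short of 1.5-fold with the length trend described for Cdk6 removed and RANKL + LEA replicate 1 left out (log2 0.58, adjusted p = 0.011). The call was made in 17 of 22 alternatives, with adjusted p between 0.0012 and 0.11.

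A neighbour shares sequence with Ccnd1. Oraov1, on the plus strand, overlaps it by 818 bases in the spans of the deposited table. In GENCODE the exons of this neighbour share 1100 bases with those of Ccnd1, 29.0% of the counted length. Strand was not used in the counting, so that reads there cannot be assigned to either gene. Oraov1 measured 20.54 and 16.2 FPKM with RANKL + LEA, 12.5 and 10.1 FPKM with RANKL, and 81.4 and 82.2 FPKM with no RANKL, the pattern closest to that of Ccnd1 when genes averaging under 2 FPKM were set aside. Its reads numbered 1041 to 8834 a library, against 5080 to 40990 for Ccnd1. With all reads of Oraov1 subtracted from Ccnd1, the log2 fold changes of Ccnd1 were 0.83 (adjusted p = 0.013) for RANKL + LEA against RANKL and -2.84 (adjusted p = 2.0e-06) for RANKL against no RANKL.

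Ccnd2, which encodes cyclin D2, had the largest change of the 10 genes (chr6:127125709-127151048, minus strand). Its level was 0.526 and 0.661 FPKM with RANKL + LEA, 0.316 and 0.355 FPKM with RANKL, and 14.9 and 12.05 FPKM with no RANKL. In both RANKL-treated groups it was below 1 FPKM in every library, while in cells without RANKL its range overlapped that of Rb1. The RANKL libraries still counted 87 and 95 reads, so the low level was not a zero. The log2 fold change was -4.96 (SE 0.19, adjusted p = 8.0e-07) for RANKL against no RANKL, a level 0.032 times as high, and -4.29 (SE 0.19, adjusted p = 2.7e-06) for RANKL + LEA against no RANKL. For RANKL + LEA against RANKL the difference was 0.67 (95% confidence interval 0.21 to 1.12), with every RANKL + LEA library above every RANKL library, but the adjusted p was 0.077 and the gene was not called. Ccnd2 passed the filter of 0.5 FPKM through the no RANKL and RANKL + LEA libraries. Its fold changes moved most with the constant added before taking logs, between -5.30 and -3.43 over the alternatives for RANKL against no RANKL, and it was called in all 22 of them.

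Ccnd3 encodes cyclin D3, which is known from blood cells and muscle as the cyclin that can persist in differentiating cells (chr17:47593467-47599688, plus strand). It measured 22.7 and 23.6 FPKM with RANKL + LEA, 21.4 and 18.5 FPKM with RANKL, and 40.7 and 40.3 FPKM with no RANKL. The cells without RANKL stood apart from all others, and the RANKL-treated groups lay close together. The level with RANKL was 0.493 times that with no RANKL (log2 -1.02, SE 0.11, adjusted p = 1.5e-04), and with RANKL + LEA the log2 difference from no RANKL was -0.80 (SE 0.11, adjusted p = 8.1e-04). Between RANKL + LEA and RANKL it was 0.22 (95% confidence interval -0.03 to 0.47, adjusted p = 0.28). The gene Bysl on the other strand shares 358 bases of its exons, 18.2% of the counted length, and measured 7.97 to 10.9 FPKM in all libraries, without a call in any comparison. With all reads of Bysl subtracted from Ccnd3, an upper limit to what they share, the log2 fold change of Ccnd3 was -2.41 (adjusted p = 0.0010) for RANKL against no RANKL, -1.73 (adjusted p = 0.0073) for RANKL + LEA against no RANKL and 0.68 (adjusted p = 0.33) for RANKL + LEA against RANKL.

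The make-up of the D cyclins is given as each gene's share of their summed FPKM, as a description with no test. Ccnd1 held 72.5% and 66.4% of the summed D cyclin FPKM with RANKL + LEA, 60.4% and 60.5% with RANKL, and 79.9% and 81.1% with no RANKL. The Ccnd3 share was 26.9% and 32.7% with RANKL + LEA, 39.0% and 38.7% with RANKL, and 14.7% and 14.6% with no RANKL. The share of Ccnd2 was under 1% in all libraries with RANKL, against 5.39% and 4.36% with no RANKL. Ccnd1 held the largest share in every library. The shares depend on how many reads Ccnd3 owes to Bysl and Ccnd1 to Oraov1. Subtracting all reads of both neighbours takes away an upper limit of what they share. In the deposited spans, only 358 of the 3845 counted bases of Bysl and 818 of the 2225 of Oraov1 overlap. The Ccnd3 share was then 10.3% and 13.1% with RANKL + LEA, 18.4% and 8.57% with RANKL, and 9.37% and 9.44% with no RANKL. The Ccnd1 share was then 88.7% and 85.4% with RANKL + LEA, 80.6% and 90.0% with RANKL, and 83.5% and 84.8% with no RANKL. The groups no longer separated in the Ccnd3 share at this limit, and a smaller subtraction was not tried. The summed level was 84.6 and 72.2 FPKM with RANKL + LEA, 55.0 and 47.8 FPKM with RANKL, and 277 and 276 FPKM with no RANKL.

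**Figure D2:**
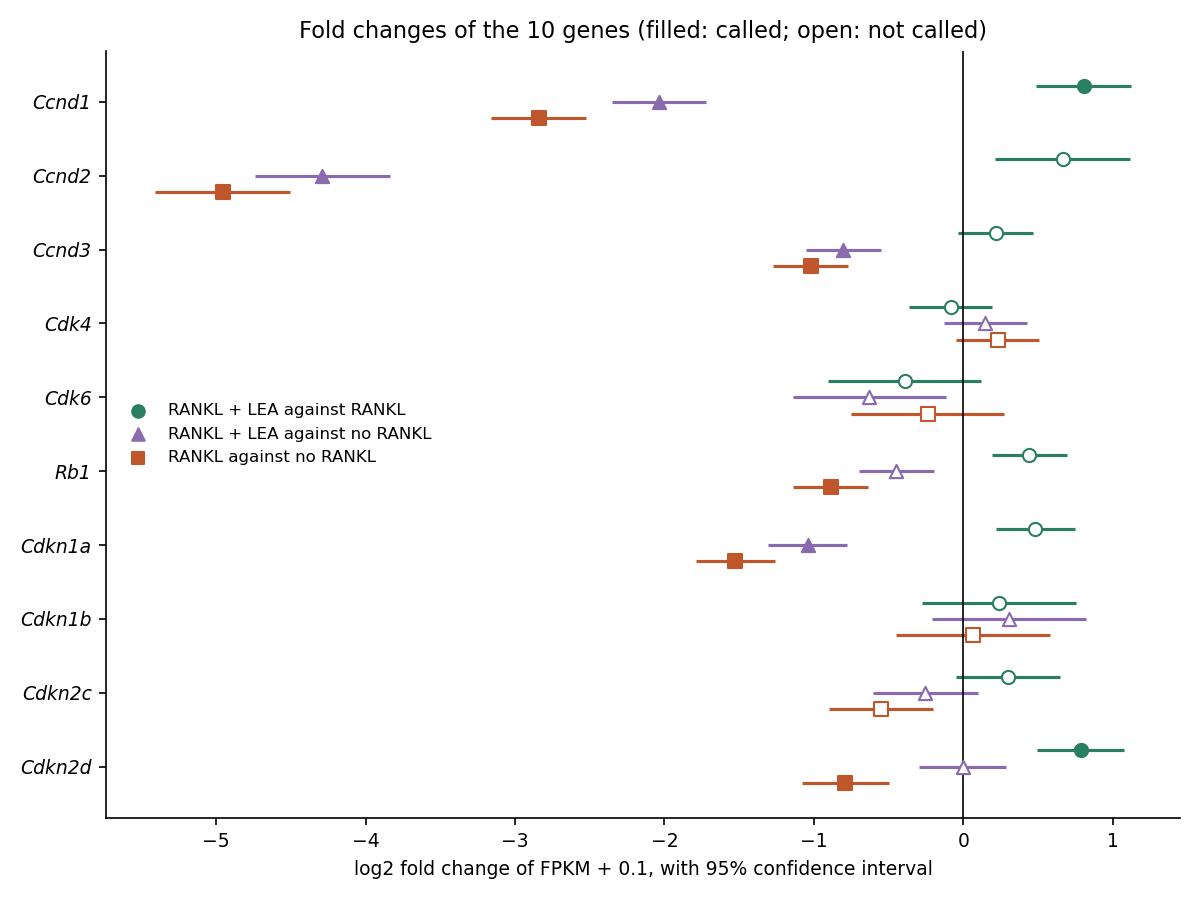
Log2 fold changes of FPKM + 0.1 for the 10 genes (horizontal axis) in 3 comparisons, with 95% confidence intervals from limma; filled symbols were called and open symbols were not. The 3 D cyclins and Cdkn1a lie left of 0 in both comparisons with no RANKL, and Ccnd1 and Cdkn2d are the called genes to the right of 0 for RANKL + LEA against RANKL.

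Neither kinase was called in any comparison. Cdk4 (chr10:127063535-127067288, plus strand), a catalytic partner of the D cyclins, measured 67.3 and 61.8 FPKM with RANKL + LEA, 73.0 and 64.0 FPKM with RANKL, and 54.0 and 62.7 FPKM with no RANKL. RANKL + LEA overlapped both other groups, while RANKL and no RANKL did not overlap by a narrow margin. None of its comparisons was called: the log2 differences were -0.08 (95% confidence interval -0.36 to 0.19) for RANKL + LEA against RANKL, 0.15 (-0.13 to 0.43) for RANKL + LEA against no RANKL and 0.23 (-0.05 to 0.51) for RANKL against no RANKL. Its intervals did not reach the fold changes measured for Ccnd1. Cdk4 was the highest of the 10 genes with RANKL, with a mean of 68.5 ± 6.3 FPKM (SD, n = 2), whereas Ccnd1 was highest with no RANKL.

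Cdk6 (chr5:3343893-3531005, plus strand), the other D cyclin kinase, measured 8.85 and 15.03 FPKM with RANKL + LEA, 14.4 and 16.0 FPKM with RANKL, and 18.6 and 17.3 FPKM with no RANKL. RANKL + LEA replicate 1 was lower than every other library, and the no RANKL libraries were the highest. The log2 fold changes were -0.39 (SE 0.22, adjusted p = 0.35) for RANKL + LEA against RANKL, -0.63 (SE 0.22, adjusted p = 0.054) for RANKL + LEA against no RANKL and -0.24 (SE 0.22, adjusted p = 0.40) for RANKL against no RANKL, and none was called. The counted exons of Cdk6 span 11512 bases, the longest of the 10 genes, and the 2 RANKL + LEA libraries differed most in long genes. The median log2 difference of RANKL + LEA replicate 1 from replicate 2 was -0.51 over the 162 genes above 10000 bases. It was 0.13 over the 4272 genes of up to 2000 bases. A difference between 2 libraries cannot tell which of them was off. The same difference above 10000 bases was -0.17 between the RANKL libraries and 0.14 between the no RANKL libraries. With each library's trend on exon length removed, an alternative chosen after seeing the data, Cdk6 was called lower with RANKL + LEA than with no RANKL (log2 -0.87, adjusted p = 4.8e-04). It was so too when RANKL + LEA replicate 1 was also left out (log2 -0.71, adjusted p = 8.4e-04). Without that removal, 1 library decided the value: it was -0.25 (adjusted p = 0.24) without RANKL + LEA replicate 1 and -1.01 (adjusted p = 0.0020, called) without replicate 2. For RANKL + LEA against RANKL, likewise, it was -0.012 (adjusted p = 0.98) without RANKL + LEA replicate 1 and -0.77 (adjusted p = 0.038, called) without replicate 2. Of the 22 alternatives for RANKL + LEA against no RANKL 7 called it, with adjusted p between 4.8e-04 and 0.24 over all of them.

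**Figure D3:**
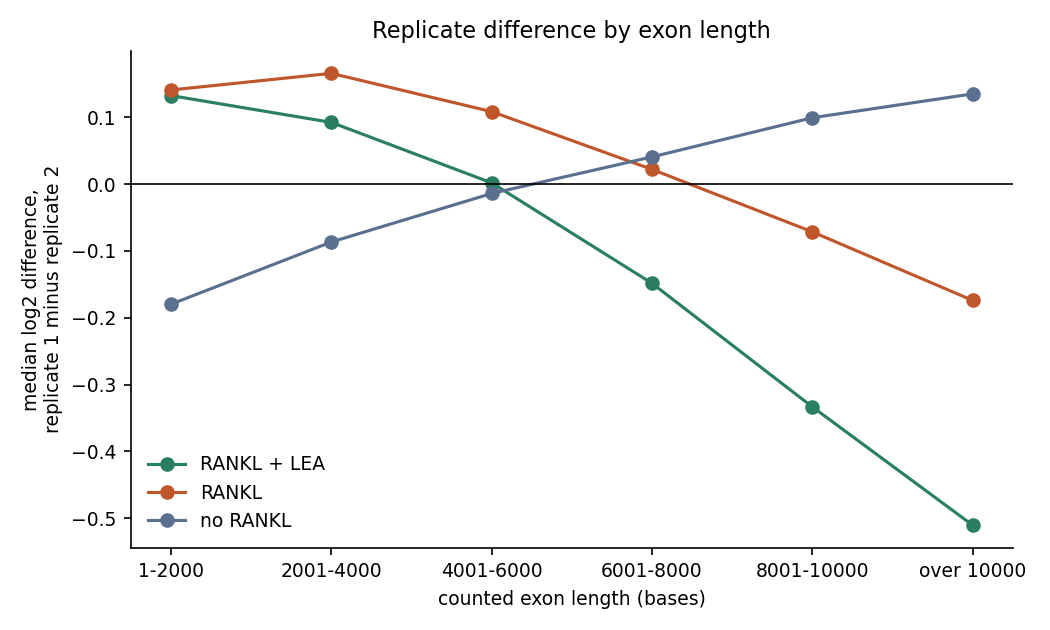
Median log2 difference between the 2 libraries of each group (replicate 1 minus replicate 2, vertical axis) for genes binned by counted exon length in bases (horizontal axis). The RANKL + LEA line drops to -0.51 in the bin above 10000 bases, where Cdk6 lies, while the RANKL and no RANKL lines end at -0.17 and 0.14.

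Rb1, whose product holds E2F factors in check until it is phosphorylated, was lower with RANKL (chr14:73195502-73325822, minus strand). It measured 9.19 and 9.76 FPKM with RANKL + LEA, 6.80 and 7.11 FPKM with RANKL, and 12.5 and 13.4 FPKM with no RANKL. The 3 groups were fully separate, with RANKL + LEA in the middle. The level with RANKL was 0.541 times that with no RANKL (log2 -0.89, SE 0.11, adjusted p = 3.1e-04). RANKL + LEA against RANKL gave 0.44 (95% confidence interval 0.19 to 0.69, adjusted p = 0.047) and RANKL + LEA against no RANKL -0.45 (-0.70 to -0.20, adjusted p = 0.013), both short of 1.5-fold and so not called. The gene Lpar6 lies within an intron of Rb1 on the other strand and shares no exon base with it. Rcbtb2, also on the other strand, shares 105 exon bases with Rb1 in GENCODE, 2.27% of the counted length, while their spans in the deposited table do not overlap. Rcbtb2 was called lower with RANKL than with no RANKL (log2 -1.72, adjusted p = 1.4e-05) and higher with RANKL + LEA than with RANKL (1.44, adjusted p = 0.0012).

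Of the CIP/KIP inhibitors, Cdkn1a was lower with RANKL and Cdkn1b was not called. Cdkn1a, a known target of p53 that slows the cell cycle in damaged or differentiating cells (chr17:29093769-29100722, plus strand), measured 82.6 and 71.9 FPKM with RANKL + LEA, 57.5 and 52.8 FPKM with RANKL, and 151 and 167 FPKM with no RANKL. It was the highest inhibitor in every library, and its 3 groups did not overlap. With RANKL it reached 0.347 times the level with no RANKL (log2 -1.53, SE 0.11, adjusted p = 2.2e-05), and with RANKL + LEA 0.486 times (log2 -1.04, SE 0.11, adjusted p = 2.6e-04). The difference between RANKL + LEA and RANKL was 0.48 on the log2 scale (95% confidence interval 0.22 to 0.75, adjusted p = 0.041), short of 1.5-fold. The adjusted p of that difference ran between 0.0036 and 0.22 over the alternatives.

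Cdkn1b, which holds quiescent cells in G1 and is controlled largely through turnover of its protein (chr6:134920401-134925525, plus strand), measured 17.2 and 11.5 FPKM with RANKL + LEA, 13.8 and 10.2 FPKM with RANKL, and 10.2 and 12.6 FPKM with no RANKL. All 3 groups overlapped. The log2 differences were 0.24 (95% confidence interval -0.27 to 0.76) for RANKL + LEA against RANKL, 0.31 (-0.21 to 0.82) for RANKL + LEA against no RANKL and 0.06 (-0.45 to 0.58) for RANKL against no RANKL. The upper ends of both RANKL + LEA intervals lay beyond 1.5-fold. Changes of that size could thus have been missed in these libraries, and smaller ones more so.

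Of the INK4 inhibitors, Cdkn2d was called and Cdkn2c was not. A difference between them was not tested. Cdkn2c (chr4:109660876-109666756, minus strand) measured 22.5 and 18.4 FPKM with RANKL + LEA, 18.5 and 14.7 FPKM with RANKL, and 23.0 and 25.6 FPKM with no RANKL. The RANKL + LEA and RANKL libraries overlapped narrowly, and both groups lay below no RANKL. RANKL against no RANKL gave a log2 difference of -0.55 (SE 0.15, adjusted p = 0.017), short of 1.5-fold. It was called without RANKL replicate 1 (-0.72) or without no RANKL replicate 1 (-0.63). RANKL + LEA against RANKL gave 0.30 (95% confidence interval -0.05 to 0.65, adjusted p = 0.29).

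Cdkn2d was the inhibitor with a call for LEA (chr9:21288464-21291209, minus strand). It measured 14.6 and 12.7 FPKM with RANKL + LEA, 8.47 and 7.32 FPKM with RANKL, and 13.3 and 14.1 FPKM with no RANKL. The RANKL + LEA libraries bracketed the no RANKL libraries, and both RANKL libraries lay below all others. With RANKL + LEA the level was 1.72 times that with RANKL (log2 0.79, SE 0.13, adjusted p = 0.012). With RANKL it was 0.579 times that with no RANKL (log2 -0.79, SE 0.13, adjusted p = 0.0012). The difference between RANKL + LEA and no RANKL was -0.0033 (95% confidence interval -0.29 to 0.29, adjusted p = 0.99). The call for RANKL + LEA against RANKL was lost without RANKL + LEA replicate 1 (log2 0.69, adjusted p = 0.075) or RANKL replicate 2 (0.68, adjusted p = 0.090). It was made in 20 of 22 alternatives, with adjusted p between 0.0015 and 0.090.

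The summed mRNA of the inhibitors was also set against that of the D cyclins, a sum that Ccnd1 dominates, as a description with no test. The 4 inhibitors summed to 137 and 115 FPKM with RANKL + LEA, 98.3 and 85.1 FPKM with RANKL, and 197 and 219 FPKM with no RANKL. Inhibitor FPKM per D cyclin FPKM was 1.62 and 1.59 with RANKL + LEA, 1.79 and 1.78 with RANKL, and 0.712 and 0.794 with no RANKL. The ratio was thus above 1 in all 4 libraries with RANKL and below 1 in both without, and RANKL + LEA lay slightly under RANKL. Cdkn1a held 61.5% of inhibitor FPKM with RANKL + LEA, 60.3% with RANKL and 76.3% with no RANKL (means, n = 2). Counted in reads, which do not correct for length, the mean ratio was 0.939 with RANKL + LEA, 1.12 with RANKL and 0.397 with no RANKL, so that the side of 1 depends on the unit. Subtracting all reads of Oraov1 and Bysl from Ccnd1 and Ccnd3 takes away an upper limit of what they share. The mean ratio in FPKM was then 2.50 with RANKL + LEA, 3.20 with RANKL and 1.003 with no RANKL, in the same order of groups.

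**Figure D4:**
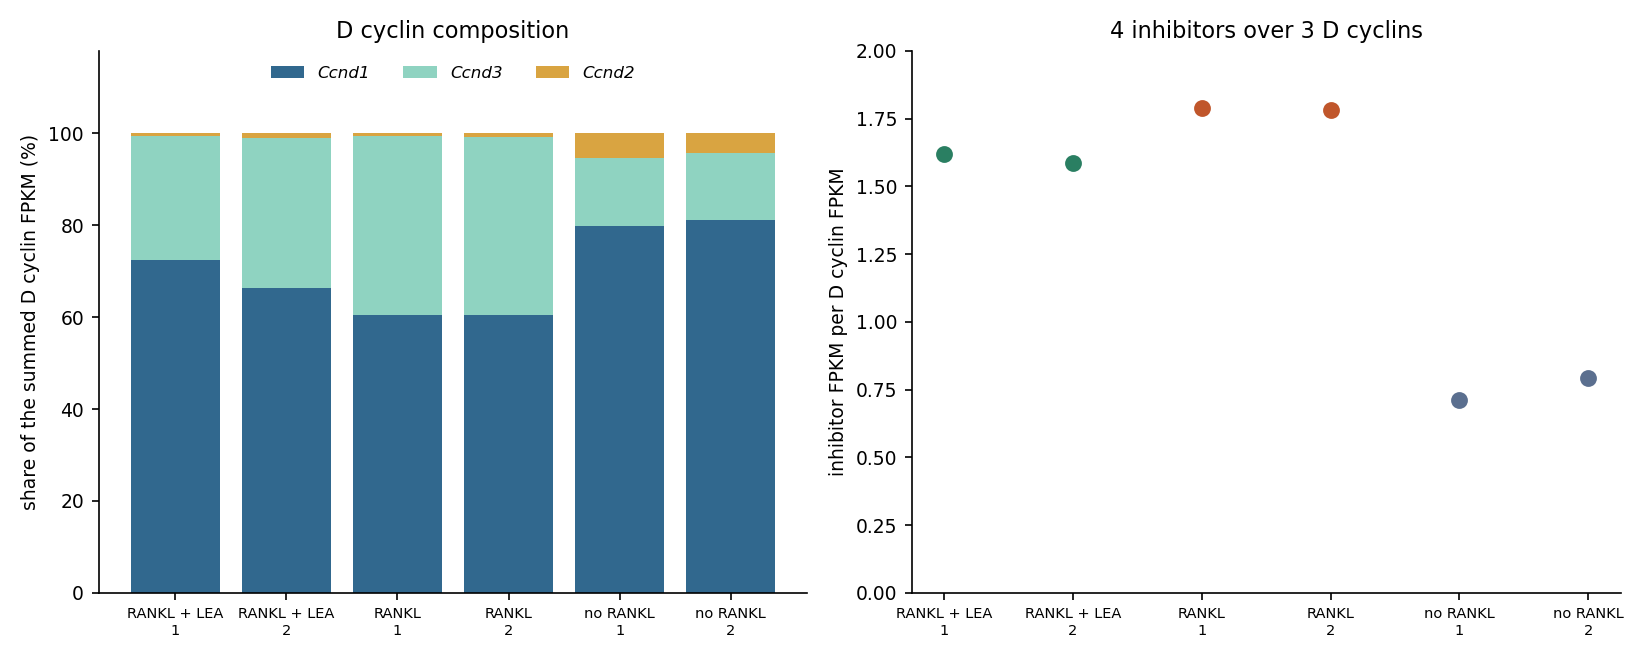
Left, the share of the summed D cyclin FPKM (%) held by Ccnd1, Ccnd3 and Ccnd2 in each of the 6 libraries; right, the summed FPKM of the 4 inhibitors per summed FPKM of the 3 D cyclins. Ccnd1 holds the largest share in every library, and the ratio is 1.59 or more in the 4 libraries with RANKL against 0.794 or less in the 2 with no RANKL.

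Other genes of the G1 to S transition were counted from a list of 37, all of which passed the filter on low values. With RANKL against no RANKL, where 17.8% of all genes were called in each direction, 15 were lower, 3 higher and 19 not called, with a median log2 fold change of -0.45. The lower ones included the cyclins Ccne1 and Ccne2, partners of CDK2, and 10 of 18 genes for pocket proteins, E2F factors and the DREAM complex, which represses cell cycle genes in quiescent cells. E2f2, an activating E2F, measured 2.98 and 3.02 FPKM with RANKL + LEA, 1.62 and 1.54 FPKM with RANKL, and 7.94 and 8.09 FPKM with no RANKL, without overlap (log2 -2.27, SE 0.12, adjusted p = 4.2e-06 for RANKL against no RANKL). E2f1, the founding member of the family, measured 11.9 and 12.3 FPKM with RANKL + LEA, 9.84 and 7.91 FPKM with RANKL, and 25.4 and 26.6 FPKM with no RANKL. Its log2 fold change for RANKL against no RANKL was -1.55 (adjusted p = 3.6e-05), and those of the repressive E2f7 and E2f8 were -1.94 and -1.18. Ccne1, with 4.80 and 4.70 FPKM with RANKL + LEA, 3.69 and 2.29 FPKM with RANKL, and 10.995 and 12.05 FPKM with no RANKL, changed by -1.95, and Ccne2 by -1.06. In E2f2, E2f1 and Ccne1 the RANKL + LEA libraries lay between the other groups, above RANKL and below no RANKL. Mybl2, which works with DREAM subunits to drive late cell cycle genes, changed by -1.18, and the pocket protein gene Rbl1 by -0.76. The phosphatase gene Cdc25a and the repressor E2f6 changed by -0.71 and -0.81 on the log2 scale.

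Among further inhibitors, Cdkn2b, an INK4 gene induced by TGF-beta in epithelial cells, measured 3.16 and 3.08 FPKM with RANKL + LEA, 4.74 and 4.44 FPKM with RANKL, and 9.35 and 9.24 FPKM with no RANKL. The groups did not overlap, and RANKL + LEA was the lowest. RANKL + LEA against RANKL gave a log2 difference of -0.54, short of 1.5-fold (adjusted p = 0.031), and Cdkn2b was called lower than with no RANKL in RANKL + LEA (-1.55) and in RANKL (-1.004). Cdkn2a was called lower with RANKL (-0.90), but the count cannot separate its INK4 and ARF transcripts. The 3 genes called higher with RANKL were Myc (0.88), Cdkn1c (0.66) and Fzr1 (0.61). Myc, a growth-promoting transcription factor, measured 15.8 and 19.7 FPKM with RANKL + LEA, 23.2 and 18.8 FPKM with RANKL, and 11.5 and 11.1 FPKM with no RANKL. Its 2 RANKL-treated groups overlapped and both stood above no RANKL.

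With RANKL + LEA against RANKL, 6 of the 37 were called higher and 0 lower, beside 4.54% and 1.77% of all genes, and the median was 0.25. All 6 belong to the 18 genes of pocket proteins, E2F factors and DREAM: E2f2 (log2 0.88), E2f8 (0.82), E2f7 (0.73), Lin9 (0.71), Rbl1 (0.69) and Lin54 (0.60). E2f8 measured 9.52 and 10.3 FPKM with RANKL + LEA, 6.01 and 5.19 FPKM with RANKL, and 13.1 and 12.5 FPKM with no RANKL, again with RANKL + LEA in the middle. With RANKL + LEA against no RANKL, 8 were lower, 2 higher (Fzr1 and Myc) and 27 not called, beside 11.8% of all genes lower and 15.5% higher. The count of 6 for RANKL + LEA against RANKL became 0 without RANKL replicate 2, 2 without RANKL + LEA replicate 1 and 3 without RANKL + LEA replicate 2.

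**Figure D5:**
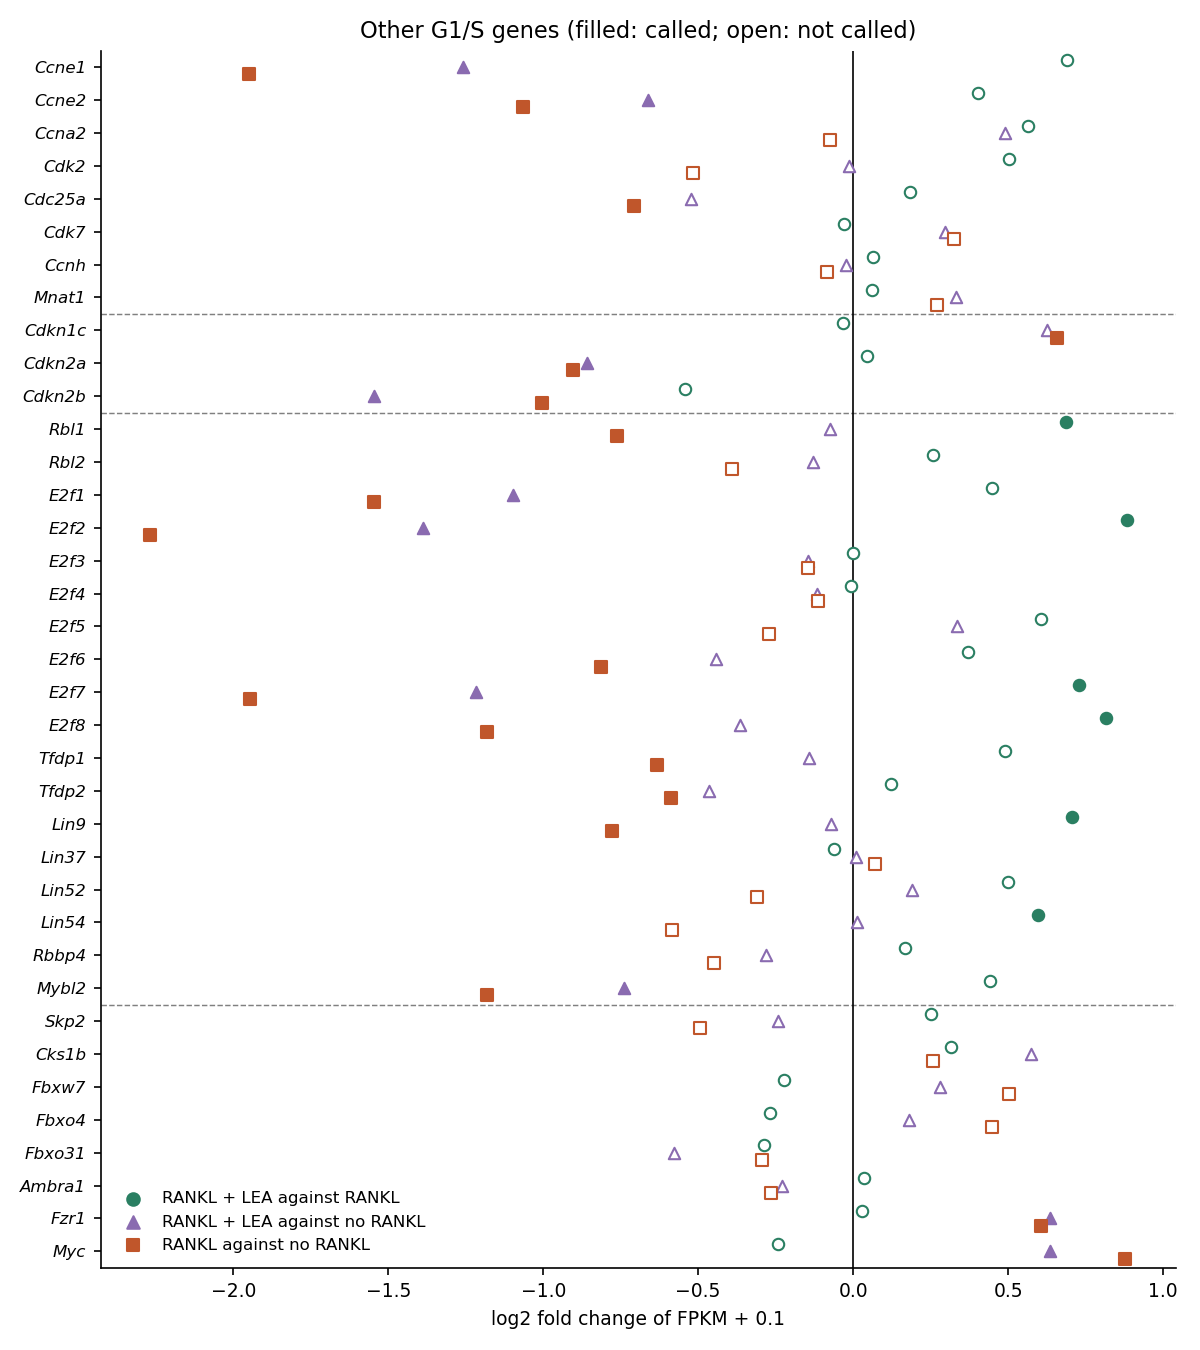
Log2 fold changes of FPKM + 0.1 (horizontal axis) of the 37 other G1/S genes in 3 comparisons; filled symbols were called, open ones were not, and dashed lines part cyclin E, cyclin A and CDK2 genes, further inhibitors, pocket protein, E2F and DREAM genes, and genes of turnover and growth input. The squares for RANKL against no RANKL reach -2.27 in E2f2, and the 6 filled circles for RANKL + LEA against RANKL all lie between 0.60 and 0.88.

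Genes that mark cycling cells were mixed in the comparisons with no RANKL. Of 18, 9 were lower and 1 higher with RANKL than with no RANKL (17.8% of all genes in each direction). With RANKL + LEA against RANKL 3, Bub1, Rrm2 and Tk1, were called higher and 0 lower (4.54% and 1.77% of all genes). All 18 lay above 0 there, between 0.22 and 0.67 on the log2 scale, with a median of 0.45 (0.049 over all genes tested). The medians were -0.71 for RANKL against no RANKL and -0.25 for RANKL + LEA against no RANKL. The lower ones with RANKL were genes of DNA replication and nucleotide supply. Pcna, the sliding clamp of DNA polymerase, measured 145 and 132 FPKM with RANKL + LEA, 103 and 88.6 FPKM with RANKL, and 360 and 414 FPKM with no RANKL (log2 -2.02, adjusted p = 6.9e-06 for RANKL against no RANKL). The helicase genes Mcm5, Mcm3 and Mcm6 changed by -1.32, -1.18 and -1.05. The mitotic cyclin Ccnb2 was the gene called higher (1.57), and with RANKL + LEA against no RANKL the mitotic genes Ccnb1 (1.05), Ccnb2 (1.84), Plk1 (0.65) and Bub1 (1.03) were called higher, while Pcna and 5 Mcm genes were called lower (15.5% and 11.8% of all genes). The other 8 of the 18 were not called there.

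Since Cdkn1a is a p53 target, 13 tested genes of a list of 14 further p53 targets were counted. With RANKL against no RANKL 8 were lower and 1, Trp53inp1, higher, where 17.8% of all genes were called in each direction. With RANKL + LEA against no RANKL 5 were lower and 1 higher, beside 11.8% of all genes lower and 15.5% higher. For RANKL + LEA against RANKL 0 were called in either direction, where only 4.54% of all genes were called higher and 1.77% lower. Plk2 measured 3.33 and 3.00 FPKM with RANKL + LEA, 4.14 and 3.49 FPKM with RANKL, and 9.85 and 10.8 FPKM with no RANKL (log2 -1.41, adjusted p = 8.7e-05 for RANKL against no RANKL). Sesn1, Zmat3 and Phlda3 changed by -1.36, -1.33 and -1.14 in the same comparison. The 4 genes not called there were Mdm2 (0.22), Ccng1 (0.20), Bbc3 (-0.45) and Aen (-0.20). The LEA contrast of Plk2 was -0.26 (adjusted p = 0.31), and that of Sesn1 0.25 (adjusted p = 0.43).

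For each of the 10 genes, the genes of most similar pattern were ranked by the root mean square difference of centred log2 levels over the 6 libraries, which 3 groups of 2 make a coarse measure. Fewest resembled Ccnd2: its nearest gene, Apoe, stood at 0.215, followed by Nrp1 and Rnf150. For Ccnd1 the nearest after the overlapping Oraov1 (0.064) were Lbh (0.109) and Pcp4l1 (0.117). Cdkn1a lay nearest Sp110, Hfe and Klf2, Ccnd3 nearest Fbxo21, Hcls1 and Galnt2, and Rb1 nearest Praf2, G6pdx and Tmed8. Cdkn2d lay nearest Neurl3 (0.046), Esco2 (0.050) and Ttk (0.060), of which Esco2 and Ttk are known for roles in sister chromatid cohesion and the spindle checkpoint. Cdk6 lay nearest Tlr9, Arhgap31 and Zfp362 (0.147 to 0.151), Cdkn1b nearest Eif4a2, Ddx5 and Tctn3, Cdkn2c nearest Keap1, Ppp1r8 and Ube2q2, and Cdk4 nearest Mrpl40, Gpkow and Abraxas2. Within 0.15 of Cdk4 there were 2353 genes, within 0.15 of Ccnd1 11 and of Ccnd2 0.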

How the data were processed

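The deposited table holds FPKM values per gene, which the authors made by aligning RNA-seq reads to the mouse genome mm10 with HISAT2 and counting exons with HOMER; versions were not given in the sources used here. Groups follow the sample titles; the treatment text in the labels, the same for every sample, names RANKL also for the libraries titled as without it. Per the table's header, reads of both strands were counted and each gene was condensed to 1 transcript, so overlapping genes on opposite strands share reads. The labels and the study's methods differ on mouse strain, RNA isolation and library kit. The authors' own gene lists of called genes were not used. Depth was recovered from the FPKM steps (100% of 2523 to 2687 low values per library whole within 0.1 read). The 11905 genes that reached 0.5 FPKM in 2 or more libraries were tested on log2(FPKM + 0.1) with limma 3.58.1 (R 4.3.3), with all 6 libraries and a mean-dependent spread in 1 fit and Benjamini-Hochberg adjustment over all genes tested within each comparison. Replicates differed beyond sampling noise (mean chi-square per gene 26.1 to 47.4; Pearson correlation of log2 levels 0.985 to 0.988). Python 3.11.15, pandas 2.3.3 and matplotlib 3.10.9 were used for tables and figures.

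All 10 genes are named. Of the other G1/S genes those called may be named, the 12 with the smallest adjusted p with values, and of the cycling and p53 lists up to 4 with values by smallest adjusted p for RANKL against no RANKL. Values of other genes, called or not, were added after they were seen. The 10 genes and the lists were chosen with earlier results of these data known. Alternatives covered the added constant, the filter, normalization, the spread, the fold limit, a test on recovered reads, a replicate block and leaving out each library. Removing the trend on exon length, exchanging replicate numbers and subtracting reads of overlapping genes were chosen after seeing the data. Cdk4 was left out of that subtraction after its value was seen, since its counted span shares 0 bases with that of its neighbour Tspan31. Before it was left out, the subtraction had made Cdk4 called higher with RANKL. In GENCODE the exons of Tspan31 share 9 bases with those of Cdk4. Gene coordinates are those of the deposited table (mm10), and exon overlaps come from GENCODE M21.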

Additional observations from a re-analysis of the deposited data

How the results depend on the processing

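With RANKL against no RANKL, 6 or 7 of the 10 genes were called under every alternative, and with RANKL + LEA against no RANKL 4 or 5. With RANKL + LEA against RANKL the main count was 2. It was 1 with no filter on low values, 4 with no fold limit, 1 with the length trend removed and without RANKL + LEA replicate 1, and 0 to 3 when a library was left out. Calls over all genes in that comparison, 751 in all, were 291 with no filter and 151 to 737 with a library left out (151 without RANKL replicate 2, 222 without RANKL replicate 1, 228 without RANKL + LEA replicate 1 and 393 without RANKL + LEA replicate 2). The 6 other G1/S genes became 3 with a pseudocount of 1, 2 with no filter, 3 with the length trend removed and without RANKL + LEA replicate 1, and 0 to 6 with a library left out. The 10 of them called with RANKL + LEA against no RANKL were 17 with no fold limit. The causes were not tested.

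Signs turned for uncalled genes: Cdkn1b with RANKL against no RANKL ran between -0.15 and 0.28 on the log2 scale when a library was left out, and with RANKL + LEA against RANKL between -0.049 and 0.53, and -0.066 with the length trend removed and without RANKL + LEA replicate 1. Cdk4 with RANKL + LEA against RANKL ran between -0.18 and 0.010, and Cdkn2d with RANKL + LEA against no RANKL between -0.10 and 0.096, and was 0.014 by voom on recovered reads. In reads, not FPKM, Ccnd1 held 80.6% of D cyclins with RANKL + LEA, 74.0% with RANKL and 84.3% with no RANKL, and inhibitor reads per D cyclin read were 0.939 with RANKL + LEA, 1.12 with RANKL and 0.397 with no RANKL, since transcripts differ in length. With all reads of overlapping genes subtracted, an upper limit, Ccnd1 held 87.1% with RANKL + LEA, 85.3% with RANKL and 84.1% with no RANKL. The ratio was then 2.50 with RANKL + LEA, 3.20 with RANKL and 1.003 with no RANKL.

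Same-numbered libraries deviated with correlations of 0.12 (RANKL + LEA and RANKL), -0.080 (RANKL and no RANKL) and -0.25 (RANKL + LEA and no RANKL), so the numbers were not taken to pair them. A replicate block gave 677 calls with RANKL + LEA against RANKL, 3233 with RANKL + LEA against no RANKL and 4243 with RANKL against no RANKL; of the 10 genes it changed only the call of Cdk6 with RANKL + LEA against no RANKL (adjusted p = 0.035). With the replicate numbers of no RANKL exchanged, the counts were 963 with RANKL + LEA against RANKL, 3364 with RANKL + LEA against no RANKL and 4345 with RANKL against no RANKL.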
